A study of Phaffia rhodozyma with 29 samples.

Results

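The double mutant of Xanthophyllomyces dendrorhous (synonym Phaffia rhodozyma), a basidiomycete yeast, in which the CYP61 locus is interrupted and SRE1 is deleted (cyp61- sre1-), was compared by RNA-seq with its wild-type parent, CBS 6938. The comparison used 3 double mutant libraries and 3 libraries of one wild-type set, called wild type (N) after the suffix of its labels, and covered all 6469 genes of the deposited count tables. These 6 libraries belong to a series of 29, of which 18 are RNA-seq libraries in 6 groups of 3. The other RNA-seq groups are a second wild-type set, wild type (Ne), the SRE1 deletion alone (sre1-), the CYP61 interruption alone (cyp61-) and a strain with FLAG-tagged Sre1. Cultures of wild-type and mutant strains were grown under standard conditions to late exponential phase, with 3 biological replicates per strain, per the series' design text. That text does not list the cyp61- and double mutant RNA-seq strains by name, and the labels give neither the number of clones behind each mutant nor which tagged strain was sequenced.

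Ergosterol is the main sterol of fungal membranes, and CYP61 encodes a cytochrome P450 desaturase of the last steps of its synthesis. Sre1 belongs to the sterol regulatory element-binding proteins, membrane-bound transcription factors whose DNA-binding part is released by cleavage when sterols run low and then turns on genes of sterol synthesis. In X. dendrorhous the same isoprenoid precursors also feed the carotenoid astaxanthin. The double mutant lacks the sterol step and the regulator together, so its comparison with the wild type asks which transcripts remain changed when both are missing. The deposited tables name genes only by identifiers such as g5770. No table used here pairs these with gene names or products, so the levels of SRE1 and CYP61 could not be read as a check of the genotypes and no role is given for any gene.

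The 3 wild type (N) libraries held 15879183, 16866376 and 17924134 gene counts, and the double mutant libraries A, B and C held 19937206, 18149792 and 16677785. The 10 most counted genes took 15.0% to 16.5% of the counts in wild type (N) and 14.3% to 20.2% in the double mutant. Spearman correlations between library profiles over the genes tested were 0.988 to 0.995 within wild type (N), 0.975 to 0.989 within the double mutant and 0.965 to 0.980 between the groups, so the last 2 ranges overlapped. The first principal component of the 6 libraries held 52.6% of the variance and separated the groups, and the second, with 23.5%, set double mutant B (score 17.8) apart from double mutant C (score -16.6). The typical spread between replicates, the biological coefficient of variation estimated in each group by itself, was 11.7% in wild type (N) and 16.4% in the double mutant.

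Fewer than 1% of the genes passed the test between the double mutant and wild type (N) when all 18 libraries set the spread, and 4.56% passed with the 6 libraries alone. Of 6228 genes with enough counts to be tested, 48 (0.771%) had an adjusted p under 0.05 in edgeR's quasi-likelihood test. Of these, 14 (0.225%) were higher and 34 (0.546%) were lower in the double mutant, and the change was at least 2-fold in 9 of the former and 27 of the latter. In all 48 the 3 libraries of one group lay above the 3 of the other, which was also so for 1738 of the genes tested (27.9%). The median log2 fold change was -0.01 and its median absolute size was 0.19. The 95% confidence interval stayed inside a 2-fold rise or fall for 5296 genes (85.0%). An unadjusted p under 0.05 was reached by 907 genes, and the 3 genes nearest to the threshold had adjusted p-values of 0.0454 to 0.0457 inside it and of 0.0536 to 0.0554 outside it. A further 241 genes were not tested because of low counts, 125 of them with a count of 0 in all 18 libraries.

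**Figure D1:**
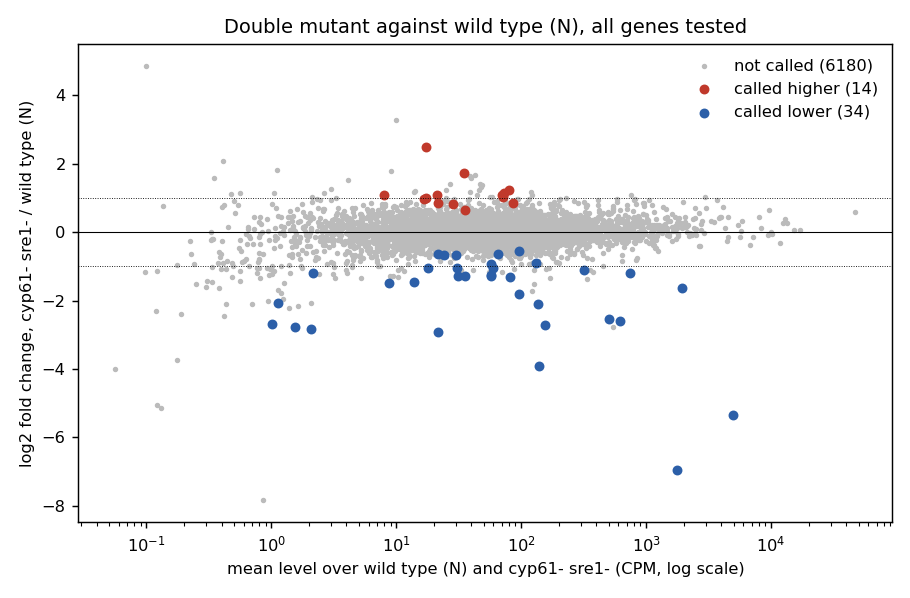
Each point is one tested gene, placed by its mean level over wild type (N) and the double mutant in CPM (log axis) and by its log2 fold change in the double mutant. Red points are the 14 genes called higher, blue points the 34 called lower and grey points the genes not called; dotted lines mark a 2-fold change, and the largest called falls, at -6.95 and -5.34, lie at means of over 1000 CPM.

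The genes called higher had low to middle counts. Levels are given in CPM, the count scaled to the TMM size of each library, which is not per gene length, so between genes it ranks reads and not transcripts. The wild type (N) means of the higher genes ran from 5.14 to 61.0 CPM with a median of 18.2 CPM, against a median of 44.1 CPM over all genes tested, and none was above 100 CPM. Their median in the double mutant was 39.8 CPM, and their log2 fold changes ran from 0.65 to 2.48 with a median of 1.06. The genes called lower covered a wider range, from 1.77 to 9589 CPM in wild type (N) with a median of 80.2 CPM, and 14 of the 34 were above 100 CPM. Their median in the double mutant was 31.0 CPM, with log2 fold changes from -6.95 to -0.55 and a median of -1.30. Among the 1000 genes of highest wild type (N) CPM, 12 (1.2%) were called, 0 higher and 12 lower. The ranking and the wild type (N) medians use the same libraries as the fold changes, so they are not independent of the direction called.

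Gene g5770 on contig 6 had the largest rise among the called genes. It stood at 4.87, 5.76 and 5.08 CPM in the 3 wild type (N) libraries and at 32.5, 25.6 and 29.7 CPM in the 3 double mutant libraries, so the groups were far apart. The mean rose from 5.23 ± 0.47 CPM (SD, n = 3) to 29.3 ± 3.49 CPM (SD, n = 3), which is 5.58-fold, with a log2 fold change and SE of 2.48 ± 0.20 (edgeR adjusted p = 2.81e-06). The second wild-type set did not share the low level of wild type (N): g5770 was at 29.7, 32.5 and 50.4 CPM in wild type (Ne) and at 42.5 to 63.6 CPM in sre1-. In cyp61- it was at 4.39 to 4.83 CPM, close to wild type (N), and in the tagged strain at 1.60 to 2.02 CPM.

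Gene g4727 on contig 4 had the second largest rise that met the naming rule. Its levels were 22.0, 14.6 and 11.4 CPM in wild type (N) and 50.9, 65.2 and 43.8 CPM in the double mutant, with no overlap. The mean went from 16.0 ± 5.46 CPM to 53.3 ± 10.9 CPM (SD, n = 3 each), which is 3.33-fold (log2 fold change 1.74 ± 0.22, edgeR adjusted p = 0.000604). Here wild type (Ne) was as low as wild type (N), at 9.24 to 14.4 CPM. The sre1- libraries, at 27.0 to 28.2 CPM, were above every wild type (Ne) library, and g4727 was the one gene called higher both in the double mutant and in sre1- against wild type (Ne) (log2 fold change 1.31 ± 0.22, edgeR adjusted p = 0.0208). It was at 20.9 to 24.6 CPM in cyp61- and at 48.1 to 55.9 CPM in the tagged strain.

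The largest falls among the called genes were those of g4821 and g4824, neighbours by number on contig 4 that both stood at high CPM in the wild type. Gene g4821 was at 2497, 3709 and 4357 CPM in wild type (N) and at 29.6, 24.5 and 31.2 CPM in the double mutant (log2 fold change -6.95 ± 1.28, edgeR adjusted p = 0.0148). Gene g4824 was at 7421, 9625 and 11721 CPM in wild type (N) and at 156, 124 and 429 CPM in the double mutant (log2 fold change -5.34 ± 1.14, edgeR adjusted p = 0.0349). All 3 double mutant libraries were low for both genes, and so was 1 of the 3 cyp61- libraries. In cyp61- A, B and C, g4821 was at 6074, 3108 and 36.1 CPM and g4824 at 7168, 4306 and 75.0 CPM, so that library C alone lay near the double mutant. Library C was also the lowest of the tagged strain, with g4821 at 47.9 CPM against 444 and 673 CPM, and of sre1-, at 699 CPM against 2451 and 1707 CPM, but it was the highest of wild type (N) and of wild type (Ne). The part of this spread in the falls was not tested. The call on g4824 was lost whichever 1 of the 6 libraries was left out (log2 fold change -6.10 to -5.03), and g4821 lost its call when double mutant A (-6.98) or double mutant C (-7.02) was left out.

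The genes numbered between them were low in the same libraries. Gene g4822, called lower as well, was at 187 to 299 CPM in wild type (N) and at 15.5 to 18.3 CPM in the double mutant (log2 fold change -3.90 ± 0.79, edgeR adjusted p = 0.0259). Gene g4823, at 759 to 1162 CPM against 125 to 148 CPM, had groups that did not overlap but did not pass the test (log2 fold change -2.78 ± 0.72, edgeR adjusted p = 0.0804). The next genes on either side were lower in the double mutant and in cyp61- C, to a smaller extent, and did not pass the test. Gene g4825 was at 2.43 to 2.93 CPM in wild type (N), at 0.296 to 0.943 CPM in the double mutant and at 5.86, 3.28 and 0.689 CPM in cyp61- A, B and C (log2 fold change -2.15 ± 0.64, edgeR adjusted p = 0.125). Gene g4820 was at 51.0 to 63.9 CPM in wild type (N), at 33.1 to 48.7 CPM in the double mutant and at 71.6, 62.3 and 16.0 CPM in cyp61- A, B and C (log2 fold change -0.51 ± 0.39, edgeR adjusted p = 0.587). Elsewhere g4820 did not follow g4821. It was at 5.91, 6.03 and 4.39 CPM in tagged strain A, B and C, below the double mutant in each. In sre1- A, B and C it was at 97.7, 81.3 and 119 CPM, so library C was the highest there. The other 7 genes from g4815 to g4827 had log2 fold changes between -0.34 and 0.43 and were not called. These neighbours were chosen after their values were seen, and the files give no positions within a contig, so only their numbering is known.

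**Figure D2:**
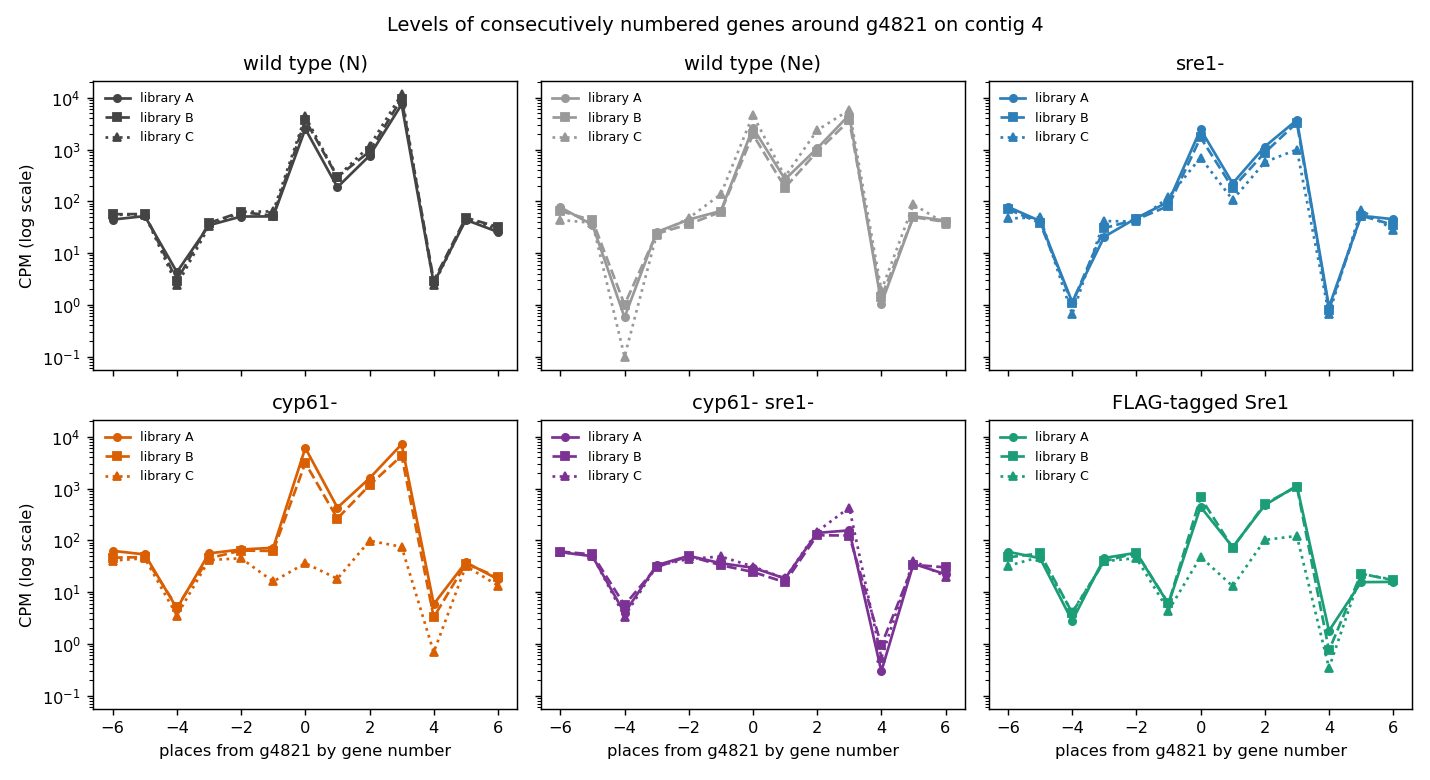
Level in CPM (log axis) of the 13 consecutively numbered genes from g4815 to g4827 on contig 4, by places from g4821, with one panel per group and one line per library. In the double mutant the peak at g4821 to g4824 is lower than in wild type (N) in each library, and in cyp61- and the tagged strain library C alone follows the double mutant.

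In cyp61- library C, 5 of the 34 lower genes were more than 2-fold below both libraries A and B. Of these 5, 3 are g4821, g4822 and g4824, whose values prompted the count. Outside that run it was so for 2 of 31 lower genes (6.45%), for 0 of the 14 higher genes and for 63 of the 6228 genes tested (1.01%). Within the double mutant, the library nearest to wild type (N) was B for 10 of the 14 higher genes and C for 17 of the 34 lower genes. The shares of each library over all genes tested were not counted.

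Falls of 3 other genes were large and even across libraries. These genes were chosen after their values were seen, because with g5770 and g4727 they form the 5 genes that kept their call whichever 1 of the 6 libraries was left out. Gene g989 on contig 3 was at 257, 283 and 262 CPM in wild type (N) and at 36.7, 36.7 and 48.5 CPM in the double mutant (log2 fold change -2.72 ± 0.17, edgeR adjusted p = 5.26e-08). It was at 72.9 to 86.2 CPM in cyp61-, at 185 to 257 CPM in sre1- and at 284 to 341 CPM in wild type (Ne), so the double mutant was the lowest group and cyp61- the next, and the tagged strain was the highest at 743 to 875 CPM. Gene g5794 on contig 6 was at 243, 218 and 201 CPM in wild type (N) and at 41.3, 54.5 and 57.6 CPM in the double mutant (log2 fold change -2.11 ± 0.21, edgeR adjusted p = 4.04e-05). Its cyp61- levels of 181 to 231 CPM overlapped those of wild type (N), its sre1- levels of 73.9 to 103 CPM lay between the double mutant and every wild-type library, and the tagged strain had 820.0 to 993 CPM.

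Gene g4615 on contig 4 was at 37.3, 39.1 and 37.3 CPM in wild type (N) and at 4.64, 4.77 and 5.79 CPM in the double mutant (log2 fold change -2.91 ± 0.38, edgeR adjusted p = 0.000943). Wild type (N) stood alone at this gene, since wild type (Ne) was at 2.00 to 3.45 CPM, sre1- at 0.341 to 4.76 CPM, cyp61- at 8.96 to 12.2 CPM and the tagged strain at 0.267 to 0.484 CPM. The wild-type sets thus differed at g4615 and at g5770 by as much as the double mutant did from wild type (N). Counted over the called genes, all 3 double mutant libraries lay above all 6 wild-type libraries for 4 of the 14 higher genes and below all 6 for 19 of the 34 lower genes. Over all genes tested, which unlike these were not chosen for lying apart from wild type (N), it was above for 5.27% and below for 6.05%. Levels of wild type (Ne) and wild type (N) come from count tables whose headers differ, so the difference between the wild-type sets and that between the tables cannot be told apart.

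The deletion of SRE1 was also measured against a wild type in sre1- and wild type (Ne), which share no library with the double mutant comparison. There 14 genes (0.225%) passed the test, 11 lower (0.177%) and 3 higher (0.0482%). Of the 11 lower genes, 8 were also called lower in the double mutant against wild type (N), which is 72.7% of the 11 and 23.5% of the 34. The overlap moved with single libraries. In the same fit with 1 library left out, the genes called lower in both numbered 1 without double mutant A, 2 without double mutant C, 4 without double mutant B and 3 to 5 without any one library of wild type (N). They numbered 1 without A or B of wild type (Ne) or of sre1-, 14 without wild type (Ne) C and 4 without sre1- C. The other 3 of the 11 had log2 fold changes of -0.76 to -0.09 in the double mutant and were not called there. Of the 3 higher genes, g4727 was called higher in the double mutant, and the other 2 had log2 fold changes of -1.35 and -1.25 there, not called.

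Among the 8 genes lower in both comparisons with all libraries, g904 and g1347, both on contig 3, had the largest falls in sre1-, and they were chosen after their values were seen. Gene g904 was at 125, 175 and 150.0 CPM in wild type (N) and at 48.7, 37.3 and 43.0 CPM in the double mutant (log2 fold change -1.80 ± 0.31, edgeR adjusted p = 0.0111). In sre1- it was at 41.3 to 58.4 CPM against 97.3 to 243 CPM in wild type (Ne) (log2 fold change -1.93 ± 0.31, edgeR adjusted p = 0.0175). The double mutant and sre1- levels overlapped, while the cyp61- strain that keeps SRE1 had 2115 to 3722 CPM and the tagged strain 3408 to 5528 CPM.

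Gene g1347 followed the same order. It was at 109, 126 and 115 CPM in wild type (N) and at 49.0, 47.0 and 44.4 CPM in the double mutant (log2 fold change -1.31 ± 0.21, edgeR adjusted p = 0.00851). In sre1- it was at 38.7 to 49.2 CPM against 109.6 to 177 CPM in wild type (Ne) (log2 fold change -1.79 ± 0.22, edgeR adjusted p = 0.000749), and in cyp61- at 569.5 to 832 CPM. The groups without SRE1 lay below every wild-type library at both genes, and cyp61- and the tagged strain lay above every wild-type library.

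Over the 8 genes, the median log2 fold change was -1.30 (range -2.11 to -0.89) in the double mutant against wild type (N) and -1.53 (range -1.93 to -0.98) in sre1- against wild type (Ne). These genes were selected for being called lower in both comparisons, so both medians are negative by that choice. The medians over all genes tested, which were not selected so, were -0.01 and 0.01. Relative to the wild type (N) mean, the median level of the 8 genes was between -1.34 and -1.26 on the log2 scale in the 3 double mutant libraries and between -1.52 and -1.17 in the 3 sre1- libraries. It was 0.64, 0.53 and -0.44 in wild type (Ne) A, B and C, so that library C stood below the other Ne libraries. It was between 1.31 and 1.60 in cyp61- and between 2.12 and 2.44 in the tagged strain. The double mutant comparison shares wild type (N) with cyp61- against wild type (N) and shares its own libraries with the double mutant against cyp61-, so their values are only set beside it: the 8 genes had a median log2 fold change of 1.38 (range -0.15 to 4.19) in the former and of -2.69 (range -5.99 to -1.87) in the latter.

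The other 26 lower genes had no call in sre1-. They were selected for being called lower in the double mutant and for not being called lower in sre1-. By that choice the first median below is negative and the second is made weaker. Their median log2 fold change was -1.37 in the double mutant against wild type (N) and -0.20 in sre1- against wild type (Ne), where 18 of 26 (69.2%) were below 0, as were 47.8% of all genes tested. Set beside it, their median in cyp61- against wild type (N), which shares the wild type, was -0.87 (range -2.14 to 0.85), where that of the 8 genes above was positive. Their median in the double mutant against cyp61-, which shares the double mutant, was -0.67. The low level was not particular to cyp61-. Relative to the wild type (N) mean, their median log2 level was -0.54, -0.57 and -0.72 in wild type (Ne) A, B and C. In sre1- it was between -0.92 and -0.53. Every wild type (Ne) library lay below every wild type (N) library for 17 of the 26. The same held for 2025 of all 6228 genes tested, which were not chosen for lying apart from wild type (N). The 14 higher genes had medians of 1.06 in the double mutant against wild type (N), 0.11 in sre1- against wild type (Ne), 0.74 in cyp61- against wild type (N) and 0.22 in the double mutant against cyp61-. Relative to wild type (N), their median log2 level was 0.77, 0.70 and 0.91 in wild type (Ne) A, B and C. In double mutant A, B and C it was 1.25, 0.75 and 0.95. Every wild type (Ne) library lay above every wild type (N) library for 10 of the 14. The same held for 1861 of all 6228 genes tested.

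**Figure D3:**
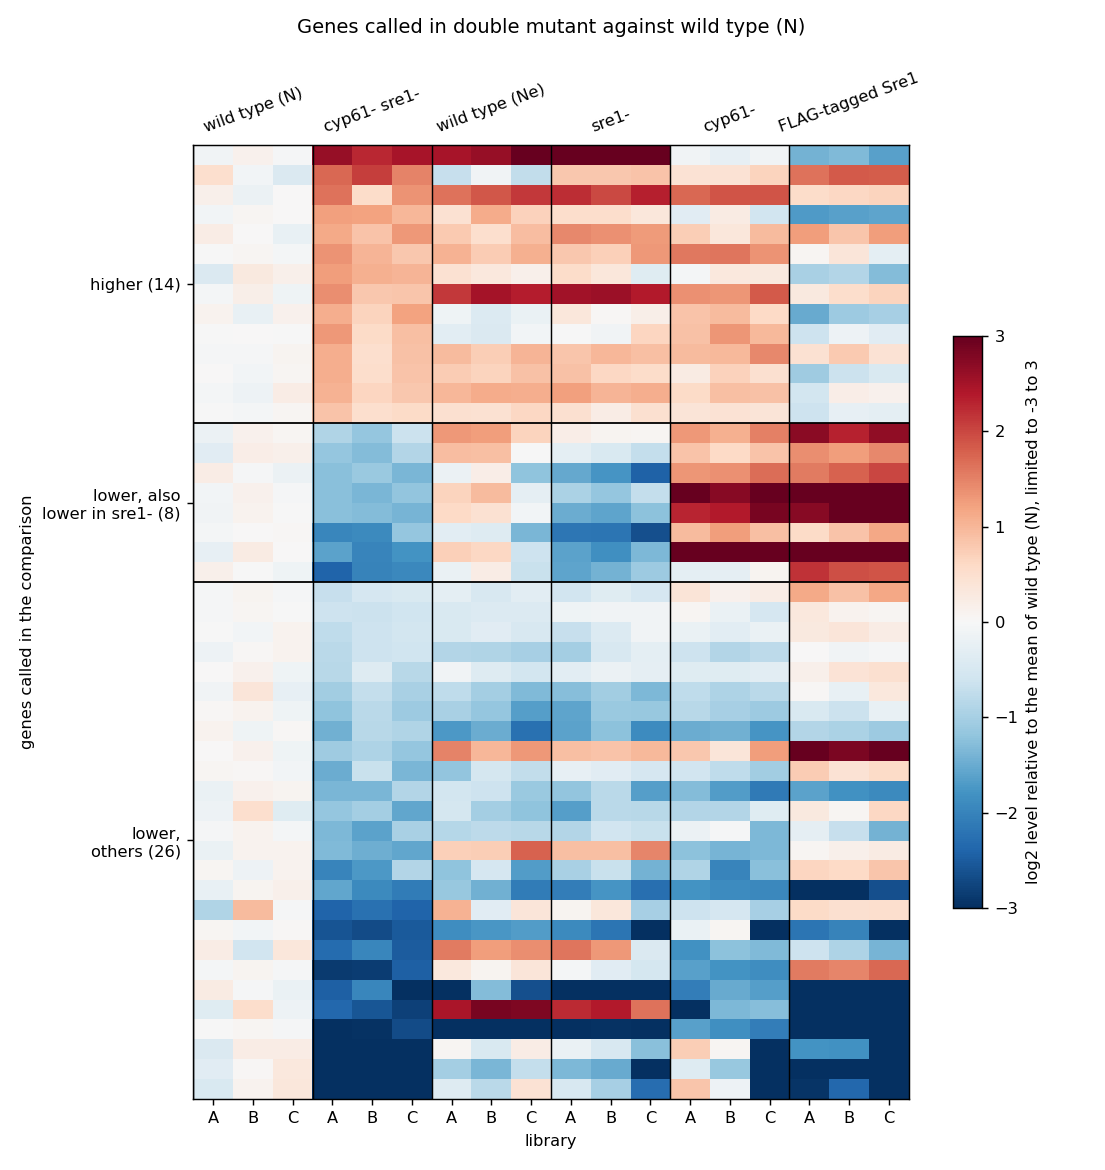
Level of the 48 called genes (rows) in all 18 RNA-seq libraries (columns), as log2 of the level relative to the wild type (N) mean, red above and blue below it, with colours limited to 3 on either side. The 8 genes lower in both comparisons are blue in the double mutant, mostly blue in sre1- and mostly red in cyp61- and the tagged strain. The other 26 lower genes are mostly blue in wild type (Ne), sre1- and cyp61- too.

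The sign of the change in sre1- against wild type (Ne) matched that in the double mutant for 35 of the 48 called genes (72.9%), against 3477 of all 6228 genes tested (55.8%). By direction it matched for 9 of the 14 higher genes (64.3%) and 26 of the 34 lower genes (76.5%). Of all genes tested, 52.2% were above 0 in sre1- against wild type (Ne) and 47.8% below it. The 26 matches include the 8 genes called lower in both comparisons. The difference between the comparisons, the change in the double mutant minus the change in sre1-, was tested for each gene in the same fit. This difference contains the change by which the 48 genes were called, so its test is not independent of the calls. The test was passed by 5 of the genes tested (0.0803%), with 431 at an unadjusted p under 0.05, and 3 of the 5 were among the 48 called genes.

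These 3 genes, named for that reason, were g989, g5770 and g4170. The fall of g989 was larger in the double mutant (-2.72 ± 0.17) than in sre1- (-0.55 ± 0.16), a difference of -2.17 ± 0.22 on the log2 scale (edgeR adjusted p = 0.000150). The rise of g5770 in the double mutant exceeded that in sre1- (0.45 ± 0.19) by 2.03 ± 0.27 (edgeR adjusted p = 0.00213). Gene g4170 on contig 9 was at 42.7, 46.9 and 45.5 CPM in wild type (N) and at 106, 103 and 89.9 CPM in the double mutant (log2 fold change 1.15 ± 0.19, edgeR adjusted p = 0.00851), while sre1- at 56.6 to 64.8 CPM overlapped wild type (Ne) at 61.97 to 98.1 CPM. The difference for g4170 was 1.47 ± 0.27 (edgeR adjusted p = 0.0485). For g904 it was 0.13 with a 95% interval of -0.78 to 1.04, which reaches about 2-fold on the positive side and less on the negative side.

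**Figure D4:**
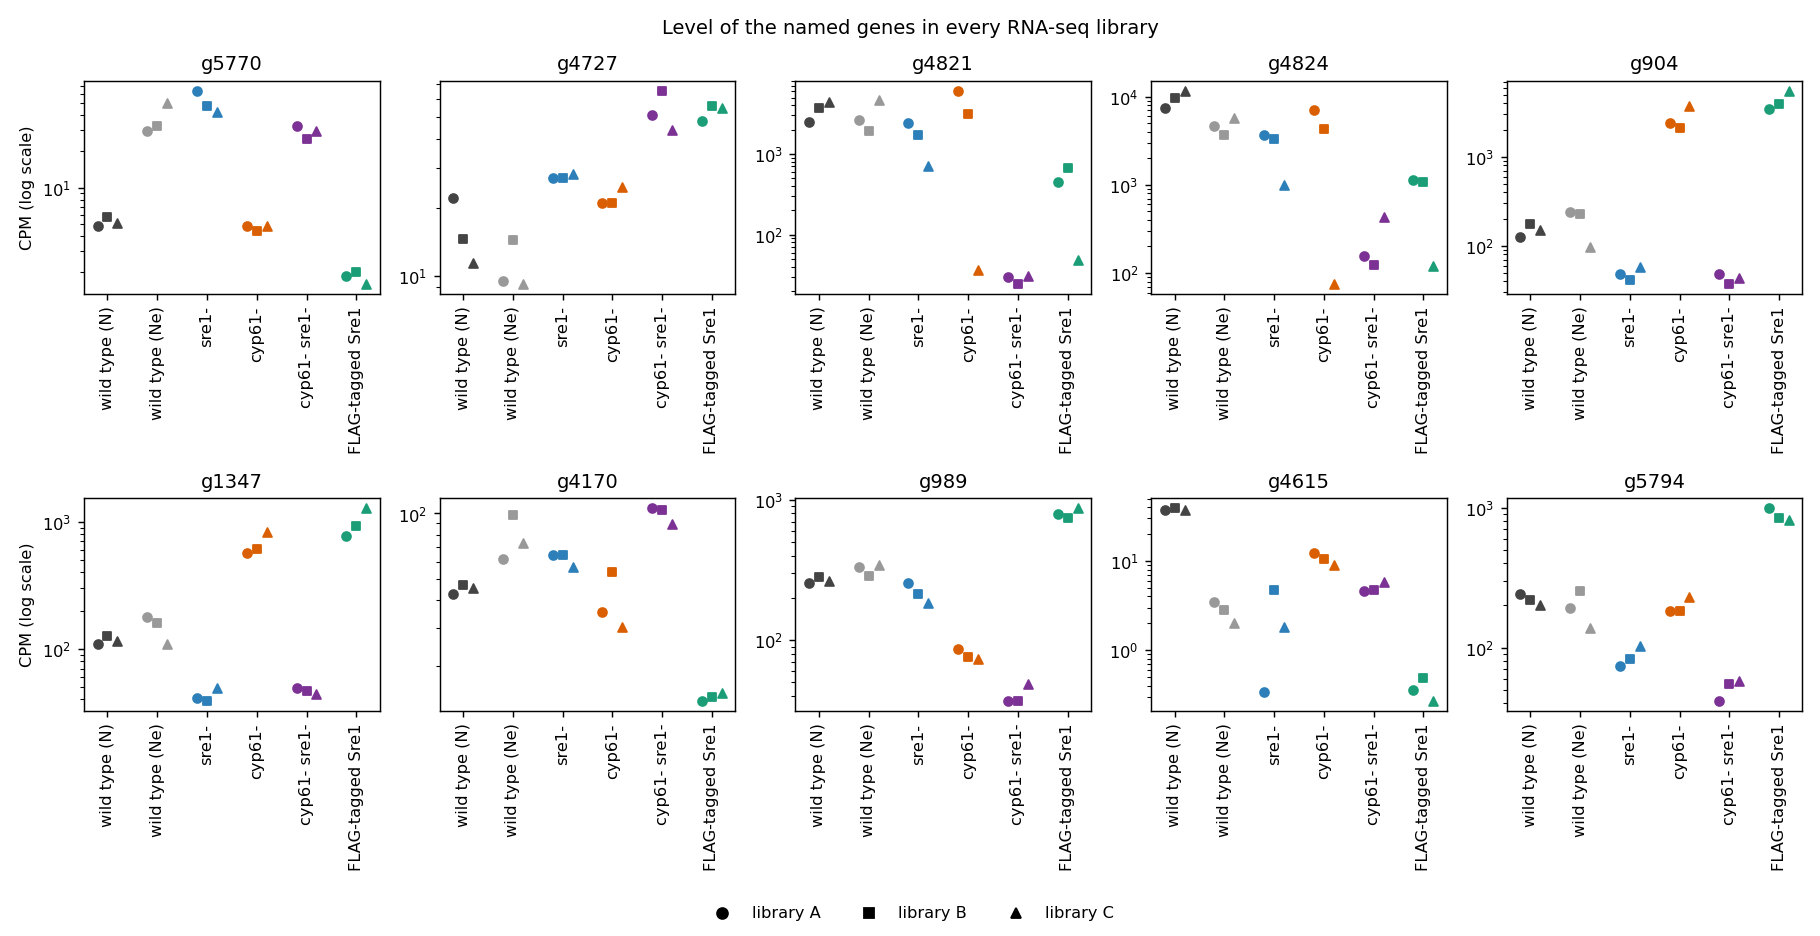
Level of the 10 named genes in every RNA-seq library in CPM (log axes, a scale of its own for each gene), with one marker per library and shapes for libraries A, B and C. At g904 and g1347 the double mutant and sre1- lie together below both wild types, and at g5770 and g4615 wild type (Ne) lies nearer to the double mutant than to wild type (N).

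The comparison of the tagged strain with cyp61- uses none of the libraries of the double mutant comparison. In it 15.6% of the genes tested were called higher and 16.6% lower in the tagged strain. Among the 34 lower genes of the double mutant comparison, 19 were in the former class and 7 in the latter, and among its 14 higher genes 1 and 12 were. The medians were 0.57 for the 34 lower genes and -1.20 for the 14 higher genes on the log2 scale, against 0.02 over all genes tested. Gene g989 had a log2 fold change of 3.36 in this comparison and g4615 one of -4.82, so the lower genes went both ways.

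By gene number, 12 of the 48 called genes fell into 5 runs in which called genes on one contig were at most 5 numbers apart, and within each run all called genes had one direction. Beside g4821 to g4824, these were g4613 to g4616 (3 lower) and g4726 to g4727 (2 higher) on contig 4, g869 to g873 (2 lower) on contig 3 and g5770 to g5772 (2 higher) on contig 6. The share of all genes tested that lie so near a called gene was not counted. Whether 12 of 48 is unusual, or the shared direction, was therefore not tested. In the run at g4613, g4615 had the highest CPM, and g4613 and g4616 were at 1.55 to 2.03 CPM and 2.31 to 3.21 CPM in wild type (N). In the double mutant g4613 and g4616 were at 0.337 to 0.543 CPM and 0.135 to 0.596 CPM. As at g4615, wild type (Ne) was also low, at 0.333 to 0.766 CPM for g4613 and 0.192 to 1.01 CPM for g4616. Contig 4 held 10 called genes of 588 tested (1.70%), contig 3 held 8 of 715 (1.12%) and contig 5 held 0 of 563.

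Genes with counts in one group only were counted where the other group's libraries were all at 0. With a minimum summed count of 10, there were 4 genes, of which 3 were tested and not called, that had a count of 0 in all double mutant libraries and summed counts of 13, 14, 18 and 92 over the wild type (N) libraries. One gene had the reverse pattern, with 12 counts, all in double mutant A. At this depth such sums are small, and no fold change is given for them.

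How many genes were called depended on the fit. The count of 48 comes from a fit in which all 18 libraries share one spread per gene. With the 6 compared libraries alone, 282 of 6181 genes (4.56%) were called, 138 higher and 144 lower, and 216 genes, 110 higher and 106 lower, were called with the 12 libraries of one set of count tables. DESeq2 on all 18 libraries called 225, 104 higher and 121 lower. The share of higher genes was therefore 29.2% of the 48 and nearer to equal in these wider lists, and the 48 genes were contained in each of them. With the 6 libraries alone, 23 genes rose and 58 fell by 2-fold or more, and the median absolute log2 fold change of the 282 genes was 0.75. In the 18-library fit, leaving out wild type (N) A, B or C left 18, 16 or 19 calls, and leaving out A, B or C of the double mutant left 5, 106 or 11.

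**Figure D5:**
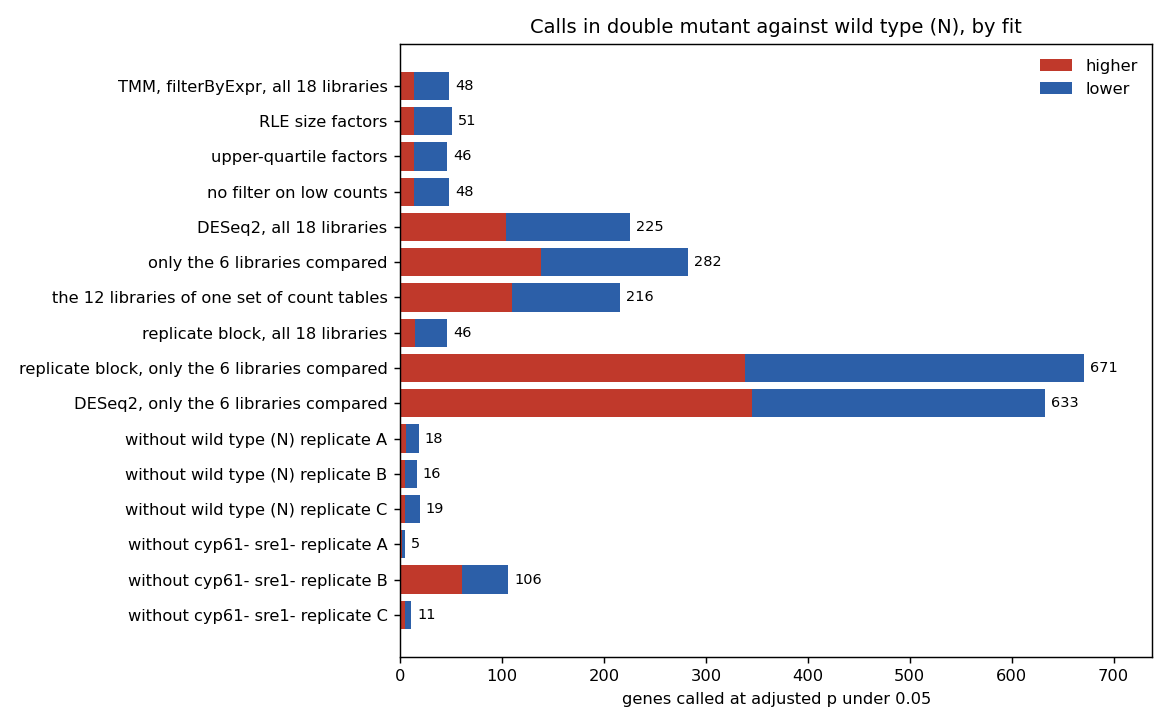
Number of genes called in the double mutant against wild type (N) at an adjusted p under 0.05 in each fit, with higher genes in red and lower genes in blue. The count runs from 5 without double mutant A to 671 with a replicate block on the 6 libraries alone.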

How the data were processed

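RNA-seq was measured in 18 libraries, 3 per group. The authors deposited unnormalized total counts of reads for each of 6469 genes, which lie on 22 contigs of the assembly QXden1.PacBioOnly, per the file headers. Headers name paired, trimmed reads for 4 groups and neither for wild type (Ne) and sre1-, so the double mutant and wild type (N) lie in one of 2 sets of count tables. The submitters' processing notes name Bowtie2 2.3.5.1, DESeq2 and edgeR among other tools, with no role given. Counting and strand settings, not given in the sources used here, could let reads be shared: genes that overlap or nearly match in sequence may not be separated.

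Genes were kept with edgeR 4.0.16 (filterByExpr), scaled by TMM and fitted by quasi-likelihood with group as the only term over all 18 libraries (R 4.3.3, limma 3.58.1). P-values were Benjamini-Hochberg adjusted over all genes tested, and standard errors are the absolute log2 fold change over the root of F. DESeq2 1.42.0, other scalings, no filter, fewer libraries, a replicate block and each library left out in turn were alternatives. Levels are CPM with TMM library sizes. In a simulation of this comparison over 6225 genes with 200 changed, all genes of a group were given the same spread. There the fit called 79% of the 2-fold changes, 10% of the 1.5-fold changes and none of the unchanged genes. The spread of the real genes differs from gene to gene, so these shares may not hold for them.

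Named genes were the 2 largest changes in each direction among called genes with at least 2-fold change, a mean of at least 10 CPM and groups that did not overlap; others are said to be chosen later. The members, lists and rules were chosen with earlier results of these data known. Gene lists by pathway could not be used without gene names, and the ChIP-exo libraries were not used here. Replicates A, B and C differed by far more than sampling noise, with a mean chi-square per gene of at least 21.8.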

Additional observations from a re-analysis of the deposited data

Results flagged for a closer look

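In 3 of the 48 genes called between the double mutant and wild type (N), the change differed from that of sre1- against wild type (Ne) by edgeR's test of the difference itself. That difference contains the change by which the 48 genes were called, so its test is not independent of the calls. For g5770 the difference was 2.03 on the log2 scale (edgeR adjusted p = 0.00213), for g4170 it was 1.47 (edgeR adjusted p = 0.0485) and for g989 it was -2.17 (edgeR adjusted p = 0.000150). The wild-type sets were themselves apart at g5770, with 4.87 to 5.76 CPM in wild type (N) and 29.7 to 50.4 CPM in wild type (Ne), and at g4170, with 42.7 to 46.9 CPM and 61.97 to 98.1 CPM. At g989 they were closer, with 257 to 283 CPM and 284 to 341 CPM. The part of these levels in the differences was not tested.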

How the results depend on the processing

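The count of 48 called genes was 51 with RLE size factors, 46 with upper-quartile factors and 48 with no filter on low counts. It moved to 225 with DESeq2 on all 18 libraries, 282 with only the 6 libraries compared, 216 with the 12 libraries of one set of count tables and 633 with DESeq2 on the 6 libraries, the last an alternative chosen after seeing the data. Leaving out 1 library gave 5 to 106. Same-letter libraries are not stated to be paired, and the correlations of their deviations were -0.07, 0.24 and 0.35; own-letter libraries correlated best for 2 of 3 libraries in each group. With a replicate block the count was 46 on 18 libraries, 40 of them shared with the 48, and 671 on the 6 libraries; with the block the sign matched for 36 genes, 4 differed between the comparisons and 5333 intervals lay within 2-fold. The count of 5296 intervals within 2-fold was 4841 to 5149 with 1 library left out. The 35 genes of matching sign (72.9% of those called) became 5 to 98 with 1 library left out, as the called list changed length, with shares of 62.3% (without double mutant B) to 100% (5 of 5 without double mutant A); they were 98 of 131 without wild type (Ne) C and 61 of 88 without sre1- C. The 3 genes that differed between the comparisons became 9 with only the 4 groups of both comparisons, and 2 to 8 with 1 library left out, 8 without wild type (Ne) C and 5 without sre1- C. Of 150 alternative values of the 10 named genes, none changed sign and 15 lost the call: 7 for g4824, with the 18-library block (-5.24) and with any 1 library left out (-6.10 to -5.03), 3 for g904, without wild type (N) B (-1.68) or double mutant A (-1.90) or C (-1.80), 2 for g1347, without double mutant A (-1.35) or C (-1.28), 2 for g4821, without the same libraries (-6.98 and -7.02), and 1 for g4170, without double mutant A (1.10). Genes g989, g4615 and g5794 were named for keeping their call with any 1 library left out, so those values of theirs could not lose it. The 15 lost calls are therefore no measure for genes chosen otherwise. The 241 genes not tested had low counts, which summed to at most 55 over the 6 libraries.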
